A study of Mus musculus with 21 samples.

Results

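The Peg3 cluster is a group of imprinted genes on mouse chromosome 7, and its members here were the rows of the deposited count tables whose symbol was Peg3, Usp29, Zim1 or Zfp264. Peg3 (Entrez 18616), Usp29 (57775) and Zim1 (22776) had rows, so 3 of the 4 named genes were analysed out of 40838 genes per table, and all 3 passed the filter on low counts in both tables. Zfp264 was matched by no symbol and was not analysed here. The cluster was chosen by the Peg3 level, which was about 4-fold lower in both SLC16A1 clones than in chr8A, so the Peg3 difference between clones and chr8A describes the choice and is given with no test, and the question asked of the data is whether its neighbours did the same.

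The samples were 21 poly(A) RNA libraries of mouse embryonic stem cells (ESCs) in 8 groups, and all cells had 10% dialyzed serum and 0.2 mM pyruvate for 48 h. The medium SL was taken to be serum plus leukemia inhibitory factor, and SL2i to be SL plus inhibitors of GSK3B and MEK. In SL2i there were 2 libraries each of SLC16A1 clone 2, SLC16A1 clone 1 and chr8A, and in SL there were 3 of each. SLC16A1 is the gene of MCT1, a plasma membrane carrier of pyruvate and lactate, each clone is 1 line, the labels do not state how it was edited, and chr8A was taken as the control line. The second table held 3 LbNOX libraries, from cells given a bacterial NADH oxidase, and 3 libraries from cells given the vector alone, all in SL. Nothing says that replicates came from separate derivations, so the p-values cover spread among the libraries only, and that spread could be technical.

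Imprinted genes are transcribed mainly from the copy inherited from 1 parent. In mice, Peg3, which encodes a large zinc finger protein, and Usp29, which encodes a ubiquitin-specific protease, are expressed from the paternal copy, and Zim1, which encodes another zinc finger protein, from the maternal copy. Peg3 and Usp29 start next to each other and run in opposite directions from a shared CpG-rich promoter, whose maternal copy carries DNA methylation set in the oocyte, while Zim1 has its own start. The libraries measured total RNA of each gene and did not separate the parental copies.

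The promoters are shown because Peg3 and Usp29 share one and Zim1 has its own. They are the RefSeq windows of build GRCm38.p6, from 250 bases before to 50 after each start, read 5′ to 3′ on the gene's strand, and 3 of the 4 members had one. The Peg3 window is chr7:6730370-6730669 on the minus strand, that of Usp29 is chr7:6730333-6730632 on the plus strand, and that of Zim1 is chr7:6696383-6696682 on the minus strand. Capitals mark TGACGTCA, the binding word of CREB and ATF factors, and CCAAT, which reads ATTGG on the other strand.
Peg3: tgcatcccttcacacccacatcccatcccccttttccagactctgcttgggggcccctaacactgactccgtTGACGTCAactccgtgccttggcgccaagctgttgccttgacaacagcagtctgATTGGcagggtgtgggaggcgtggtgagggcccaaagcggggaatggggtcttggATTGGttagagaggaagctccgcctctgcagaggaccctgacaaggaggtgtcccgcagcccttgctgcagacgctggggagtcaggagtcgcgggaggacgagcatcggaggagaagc
Usp29: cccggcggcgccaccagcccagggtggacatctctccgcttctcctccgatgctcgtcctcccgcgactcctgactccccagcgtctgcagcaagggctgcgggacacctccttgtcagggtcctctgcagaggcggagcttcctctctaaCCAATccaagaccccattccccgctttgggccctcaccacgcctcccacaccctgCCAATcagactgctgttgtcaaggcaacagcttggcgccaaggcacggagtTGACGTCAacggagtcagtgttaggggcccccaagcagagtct
Zim1: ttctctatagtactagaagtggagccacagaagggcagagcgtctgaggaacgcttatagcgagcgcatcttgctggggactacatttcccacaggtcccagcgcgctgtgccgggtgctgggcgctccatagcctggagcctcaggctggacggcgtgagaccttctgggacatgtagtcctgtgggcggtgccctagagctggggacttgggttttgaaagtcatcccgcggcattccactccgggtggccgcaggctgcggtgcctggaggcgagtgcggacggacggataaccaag

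The Peg3 and Usp29 windows shared 263 of their 300 bases, the same letters on opposite strands, and the 2 starts lay 164 bases apart. TGACGTCA was found 1 time and CCAAT 2 times, on either strand, in both windows, and neither was found in that of Zim1. Among all 32851 promoter windows in the table, 1.79% held TGACGTCA and 37.4% held CCAAT. The word GGGCGG, which SP1 binds, was found 1 time in the Zim1 window and in neither of the others (35.7% of all windows), and GCCATNTT, the core of the YY1 motif, was found in none of the 3 (6.05% of all windows). The windows held 13 CpG sites for Peg3, 17 for Usp29 and 20 for Zim1, against a median of 7 over all windows, and their GC content was 61.3%, 63.7% and 61.7%. A match describes the letters and not a bound site.

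Library totals were 9784408 to 10908368 reads in SL2i and 15802072 to 30145771 in SL in the clone and chr8A table, and 16521594 to 30008895 in the LbNOX and vector table. Medium therefore went with depth, and the medium was also compared after all libraries were thinned to equal depth. All 12 ESC markers had reads in every group, and their summed level was 6212 to 6585 CPM, the count scaled by library size, in SL2i and 4488 to 5128 in SL. Slc16a1 averaged 93.5 ± 2.64 CPM in SL clone 2, 170 ± 10.3 in SL clone 1 and 198 ± 2.99 in SL chr8A (SD, n = 3 each), so transcripts of the gene were present in both clones. It was lower than in chr8A by a log2 change of -1.08 ± 0.034 in clone 2 and -0.21 ± 0.033 in clone 1 (edgeR quasi-likelihood test, Benjamini-Hochberg adjusted p = 9.0e-50 and 2.7e-07).

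Peg3 was the most abundant member in all 8 groups. In SL it had 92.7, 101 and 94.6 CPM in the clone 2 libraries, 94.0, 101 and 95.1 in those of clone 1, and 445, 434 and 438 in those of chr8A. In SL2i it had 29.3 and 31.9 CPM in the clone 2 libraries, 33.4 and 34.0 in those of clone 1, and 145 and 151 in those of chr8A. Every clone library lay below every chr8A library of the same medium, as was so for 18.5% of all tested genes in clone 2 and 15.4% in clone 1 in SL, and for 27.9% and 29.3% in SL2i. In SL the log2 change was -2.19 ± 0.032 (± SE) in clone 2 and -2.18 ± 0.033 in clone 1, which is 4.55-fold and 4.54-fold lower, and in SL2i it was -2.27 ± 0.061 and -2.13 ± 0.061, or 4.83-fold and 4.38-fold lower. In these bulk libraries, fewer cells with the transcript and less of it per cell cannot be told apart. The gene has almost no sequence in common with other genes, as 0.0451% of its 30-base words occur elsewhere among the reference transcripts.

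Usp29, the head-to-head neighbour, was lower in both clones by about as much as Peg3. In SL it had 2.54, 2.18 and 2.32 CPM in the clone 2 libraries, 1.37, 2.18 and 1.89 in those of clone 1, and 10.6, 9.58 and 10.3 in those of chr8A, from 26 to 71 reads per clone library and 247 to 266 per chr8A library. In SL2i it had 0.890 and 1.44 CPM in the clone 2 libraries, 1.16 and 1.75 in those of clone 1, and 6.08 and 6.21 in those of chr8A. All clone libraries again lay below all chr8A libraries of their medium, with no overlap. The log2 change in SL was -2.13 ± 0.14 in clone 2 and -2.49 ± 0.16 in clone 1, given as a description because the choice of the cluster used that contrast.

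In SL2i, Usp29 fell by 2.39 ± 0.30 on the log2 scale in clone 2 (edgeR, Benjamini-Hochberg adjusted p = 1.9e-10, lower in 2 of 2 libraries) and by 2.06 ± 0.29 in clone 1 (adjusted p = 6.4e-09, lower in 2 of 2 libraries). These are 5.24-fold and 4.17-fold lower levels. Of the 2 neighbours tested in each clone, Usp29 was the 1 called, where 20.6% of all 17178 tested genes were called in clone 2 and 22.4% in clone 1. Both clones were set against the same chr8A libraries, so their values are not independent of each other. The counts in SL2i were small, at 9 and 15 reads in clone 2, 11 and 18 in clone 1, and 63 and 63 in chr8A, which shows in the SE. Of the gene's 30-base words, 16.2% occur in other genes, most of them in Zim3, which overlaps it on the other strand. The use of strand in counting was not given in the sources used here, so the Usp29 level is uncertain to that degree, while Zim3 itself had 0 to 5 reads per library.

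Zim1, the maternally expressed gene with its own promoter, was not lower in the clones. In SL it had 2.42, 3.19 and 2.74 CPM in the clone 2 libraries, 3.12, 1.83 and 1.95 in those of clone 1, and 2.42, 2.64 and 1.75 in those of chr8A. In SL2i it had 1.48 and 1.06 CPM in the clone 2 libraries, 0.844 and 1.07 in those of clone 1, and 0.965 and 0.789 in those of chr8A, from 8 to 15 reads per library. The groups overlapped in SL and between clone 1 and chr8A in SL2i, while both clone 2 libraries were above both chr8A libraries in SL2i. The log2 change in SL was 0.32 ± 0.21 in clone 2 and 0.03 ± 0.22 in clone 1, as a description. In SL2i it was 0.53 ± 0.48 in clone 2 (edgeR, adjusted p = 0.505) and 0.13 ± 0.51 in clone 1 (adjusted p = 0.90). The intervals of 2 SE on each side ran from -0.43 to 1.48 and from -0.90 to 1.16, so a fall beyond these lower ends, that seen for Usp29 included, lay outside both. A higher level in every clone 2 library than in every chr8A library in SL2i was met by 27.2% of all tested genes.

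**Figure D1:**
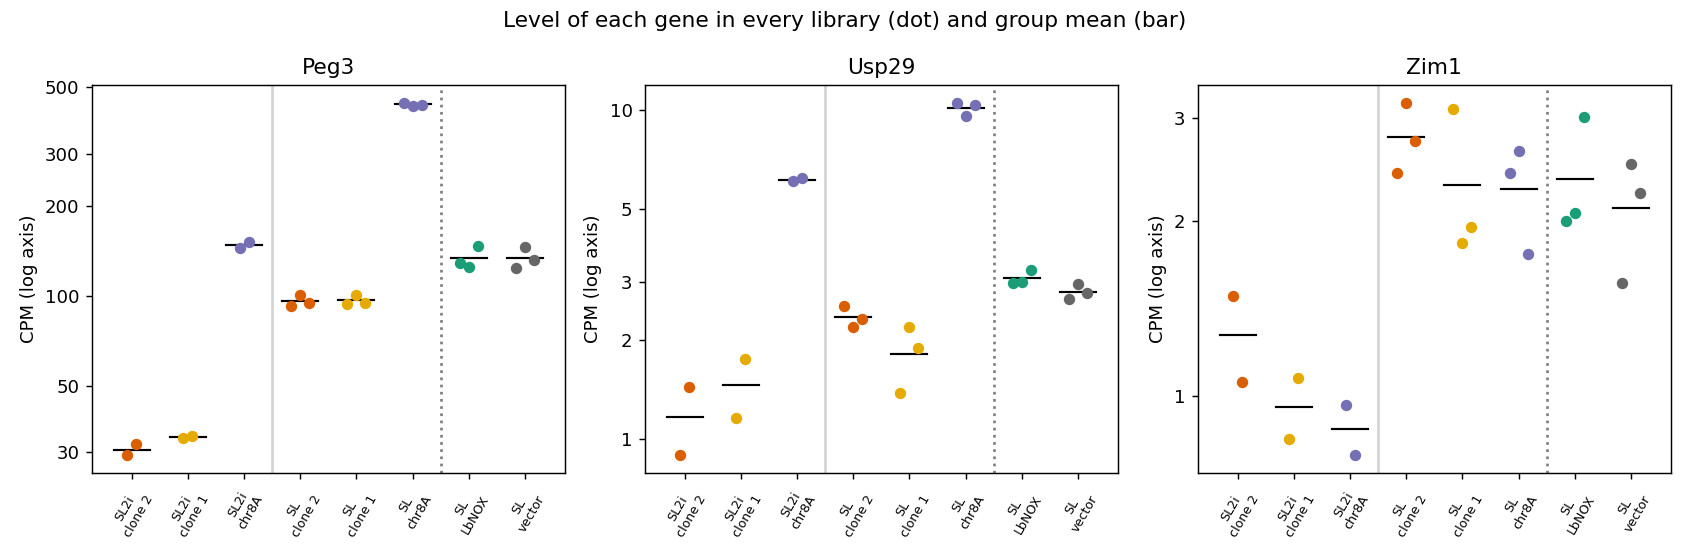
Level of Peg3, Usp29 and Zim1 in CPM (log axes that differ between panels) in each library (dots) with group means (bars), for the SL2i groups, the SL groups of the same table and, right of the dotted line, the LbNOX and vector groups normalized in a second table. In each medium Peg3 and Usp29 lie lower in the clones than in chr8A (in SL, Peg3 at 92.7 to 101 against 434 to 445 CPM), while Zim1 separates by medium.

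**Figure D2:**
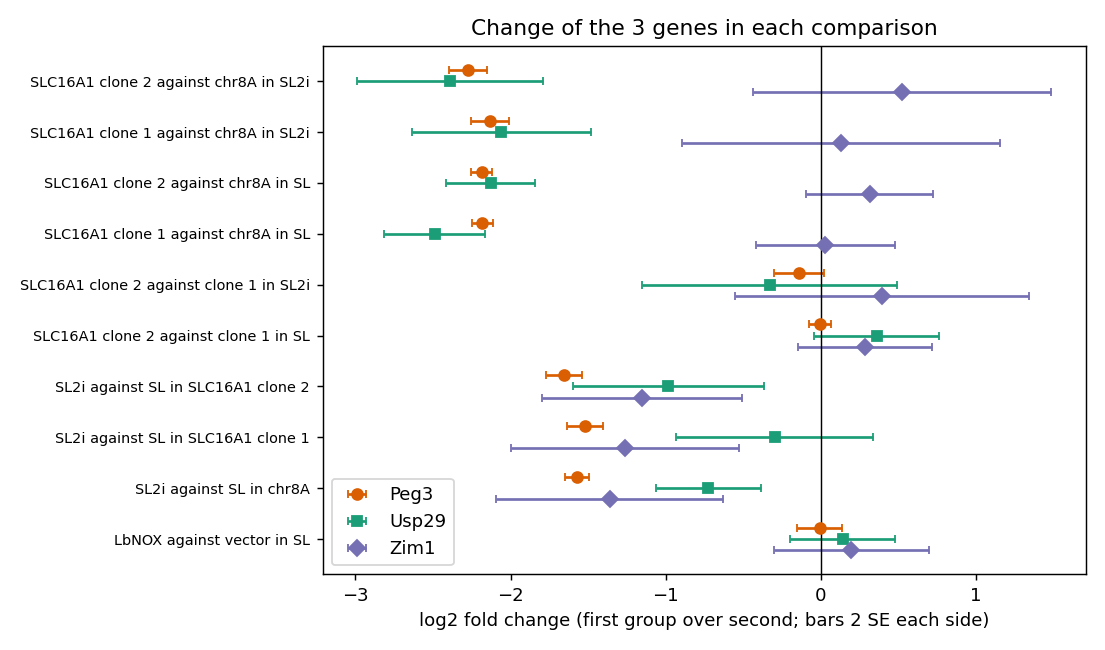
Log2 fold change of Peg3, Usp29 and Zim1 in 10 comparisons, the first named group over the second, with bars of 2 SE on each side. In the 4 comparisons of a clone with chr8A, Peg3 and Usp29 lie between -2.49 and -2.06 and Zim1 between 0.03 and 0.53.

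The other transcripts of the domain were hardly detected. Zim2 and Zim3, which are zinc finger genes, had 0 to 5 reads per library, and the antisense RNA Peg3os had 0 reads in all 21. None of them passed the filter, and no fold is given. Apeg3 and Ast1 were matched by no symbol and were not analysed here.

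Per length of gene model, the cluster was led by Peg3 in every group. RPKM is CPM per kilobase of gene model, with 11482 bases for Peg3, 15086 for Usp29 and 6216 for Zim1. In SL, Peg3 had 8.37 ± 0.375 RPKM in clone 2, 8.42 ± 0.338 in clone 1 and 38.2 ± 0.488 in chr8A (SD, n = 3 each). Usp29 had 0.156 ± 0.0120 RPKM in clone 2, 0.120 ± 0.0272 in clone 1 and 0.674 ± 0.0340 in chr8A. Zim1 had 0.448 ± 0.0628 RPKM in clone 2, 0.370 ± 0.114 in clone 1 and 0.365 ± 0.0744 in chr8A. Zim1 therefore had a higher level per length than Usp29 in both clones, and Usp29 a higher one than Zim1 in chr8A, and the libraries of the 2 genes did not overlap in any of these 3 groups. By CPM the libraries of the 2 genes overlapped in both clones, so their separation there rests on the lengths used.

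By mean CPM within the first table, the groups in rising order of Peg3 were SL2i clone 2 (30.6), SL2i clone 1 (33.7), SL clone 2 (96.1), SL clone 1 (96.7), SL2i chr8A (148) and SL chr8A (439), and the 2 SL clones were the neighbours whose libraries overlapped. For Usp29 the order was SL2i clone 2 (1.16), SL2i clone 1 (1.46), SL clone 1 (1.82), SL clone 2 (2.35), SL2i chr8A (6.15) and SL chr8A (10.2), and up to SL clone 2 each neighbouring pair overlapped. For Zim1 it was SL2i chr8A (0.877), SL2i clone 1 (0.958), SL2i clone 2 (1.27), SL chr8A (2.27), SL clone 1 (2.30) and SL clone 2 (2.78). The SL groups of Zim1 overlapped one another, as did neighbouring SL2i groups, while every SL2i library lay below every SL library.

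The ratio of a neighbour's reads to those of Peg3 in the same library needs no scaling between libraries. In SL there were 2.74, 2.16 and 2.45 Usp29 reads per 100 Peg3 reads in clone 2, 1.46, 2.16 and 1.99 in clone 1, and 2.37, 2.21 and 2.36 in chr8A. In SL2i there were 3.04 and 4.50 in clone 2, 3.47 and 5.16 in clone 1, and 4.21 and 4.11 in chr8A. Within each medium the exact 95% counting intervals of the libraries overlapped (in SL clone 1, 0.953 to 2.15 for the lowest library, and in SL chr8A, 2.09 to 2.69 for the highest). The ratios themselves did not all overlap, as every SL clone 1 library lay below every library of SL chr8A and of SL clone 2. The group means were 2.45 ± 0.289, 1.87 ± 0.364 and 2.31 ± 0.0911 in SL clone 2, clone 1 and chr8A, and 3.77 ± 1.04, 4.31 ± 1.19 and 4.16 ± 0.0718 in the same lines in SL2i.

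Zim1 stood apart on this measure. In SL there were 2.61, 3.16 and 2.90 Zim1 reads per 100 Peg3 reads in clone 2, 3.32, 1.81 and 2.05 in clone 1, and 0.544, 0.608 and 0.399 in chr8A. In SL2i there were 5.07 and 3.30 in clone 2, 2.52 and 3.15 in clone 1, and 0.668 and 0.522 in chr8A. All clone libraries were above all chr8A libraries in both media. These ratios restate the Peg3 difference that chose the cluster and are given as a description. The intervals cover counting error only, since reads without molecular identifiers are not independent molecules.

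**Figure D3:**
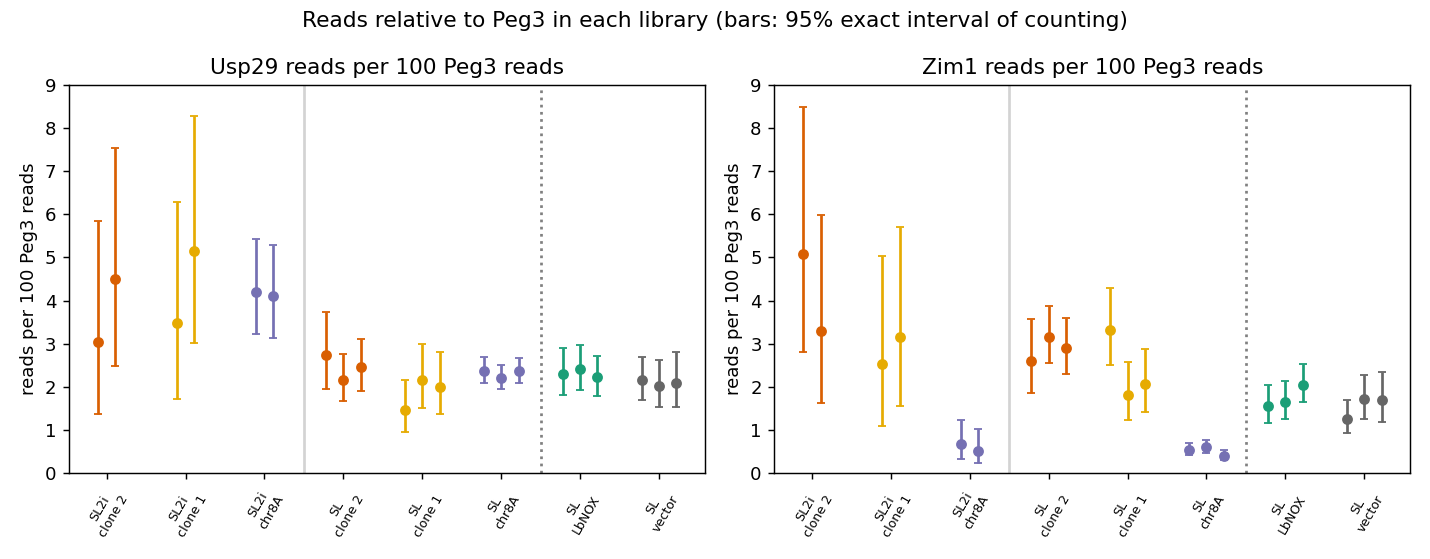
Usp29 reads (left) and Zim1 reads (right) per 100 Peg3 reads in each library, with exact 95% counting intervals, for the SL2i groups, the SL groups of the same table and, right of the dotted line, LbNOX and vector. In SL2i the Usp29 ratio of each clone overlaps that of chr8A (3.04 to 5.16 in the clones against 4.11 to 4.21 in chr8A). In SL clone 2 overlaps chr8A, while clone 1 (1.46 to 2.16) lies below chr8A (2.21 to 2.37). The Zim1 ratio lies between 1.81 and 5.07 in the clones against 0.399 to 0.668 in chr8A.

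The clones were also compared with each other. As the cluster was chosen because Peg3 was lower by a similar fold in both clones, the choice largely fixed a small Peg3 difference between them, and that difference is given as a description. Clone 2 over clone 1 gave a log2 change for Peg3 of -0.0043 ± 0.036 in SL, where the libraries overlapped, and of -0.14 ± 0.080 in SL2i, where both clone 2 libraries lay below both clone 1 libraries, as was so for 17.1% of tested genes. In SL the change was 0.36 ± 0.20 for Usp29 and 0.28 ± 0.22 for Zim1 (edgeR, Benjamini-Hochberg adjusted p = 0.39 and 0.56). Neither was called, where 4.4% of all tested genes were, neither had an unadjusted p under 0.05, DESeq2 called neither, and the libraries of the clones overlapped. The intervals of 2 SE on each side were -0.045 to 0.77 for Usp29 and -0.15 to 0.72 for Zim1. In SL2i the changes were -0.33 ± 0.41 for Usp29 and 0.39 ± 0.47 for Zim1 (adjusted p = 0.89 for each), with intervals from -1.15 to 0.50 and from -0.55 to 1.34 and overlapping libraries. Neither was called, where 0.157% of all tested genes were, at an unadjusted p under 0.05 or by DESeq2 either. Slc16a1 itself differed between the clones, with a log2 change of -0.87 ± 0.035 in SL (adjusted p = 7.2e-40).

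The medium was compared within each line. Medium and library set cannot be told apart, since SL2i and SL libraries differed in number and depth and may differ in other ways. Peg3 fell in SL2i relative to SL in all 3 lines, by 1.65 ± 0.057 on the log2 scale in clone 2, 1.52 ± 0.058 in clone 1 and 1.57 ± 0.039 in chr8A (edgeR, Benjamini-Hochberg adjusted p = 2.1e-48, 5.1e-45 and 4.4e-61). These are 3.15-fold, 2.87-fold and 2.97-fold lower levels. All SL2i libraries lay below all SL libraries of their line, as was so for 41.4%, 41.2% and 40.9% of all tested genes. Zim1 fell too, by 1.15 ± 0.32 in clone 2, 1.26 ± 0.37 in clone 1 and 1.36 ± 0.36 in chr8A (adjusted p = 0.00099, 0.0015 and 0.00057), also with no overlap. At equal depth Peg3 fell by 1.62 in clone 2, 1.48 in clone 1 and 1.58 in chr8A (edgeR, adjusted p = 1.0e-35, 7.6e-34 and 6.0e-45), close to the values without thinning. The Zim1 call in clone 2 was lost at equal depth (-0.77, adjusted p = 0.11, with 0.00032 to 0.11 over all alternatives).

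Usp29 was called lower with the medium in 2 of the 3 lines. It fell by 0.98 ± 0.31 in clone 2 (edgeR, adjusted p = 0.0030) and by 0.72 ± 0.17 in chr8A (adjusted p = 7.8e-05), with no overlap, and its change in clone 1 was -0.30 ± 0.32 (adjusted p = 0.40), with overlapping libraries. Without the first SL2i clone 2 library, which had 9 Usp29 reads, the clone 2 change was -0.70 and no longer called (adjusted p = 0.11, with 0.0026 to 0.11 over all alternatives). Lower calls numbered 3 of 3 members in clone 2, 2 of 3 in clone 1 and 3 of 3 in chr8A, where 37.2%, 37.1% and 36.8% of all tested genes were called lower. The ratio of Usp29 to Peg3 was higher in SL2i than in SL in each line, at the values given above. Summed markers of other cell types also stood lower in SL2i within each line, except those of trophoblast in clone 2. There the sum was 36.5 CPM in SL2i against 31.2 CPM in SL. The ranges over the lines overlapped between media for some lists. The summed level of the 11 fibroblast markers was 12.3 to 14.3 CPM in SL2i, with Col3a1, Dcn and Postn at 0 in all 3 lines, against 63.3 to 67.6 CPM in SL in the same lines. Pdgfrb, on the same list, went the other way. It had 6.91, 6.17 and 6.55 CPM in SL2i clone 2, clone 1 and chr8A, against 1.10, 1.30 and 1.85 in SL. The summed level of the 4 neural markers was 58.2 to 65.9 CPM in SL2i against 327 to 391 CPM in SL. For the 7 endoderm markers it was 5.71 to 9.53 CPM in SL2i against 20.8 to 24.2 CPM in SL. The 7 trophoblast markers were at 21.6 to 39.4 CPM in SL2i against 31.2 to 45.0 CPM in SL, with Tpbpa at 0 throughout, and the 5 mesoderm and muscle markers at 0.439 to 1.03 CPM in SL2i against 0.846 to 1.26 CPM in SL, with T at 0 throughout. The part of these markers in the result was not tested.

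Whether the change from SL to SL2i differed between lines was tested between the clones. That change in clone 2 minus the change in clone 1 was -0.69 ± 0.46 for Usp29 and 0.11 ± 0.52 for Zim1 on the log2 scale (edgeR, adjusted p = 0.67 and 0.98), and neither was called, where 0.466% of tested genes were, nor at an unadjusted p under 0.05 or by DESeq2. For Peg3 it was -0.13 ± 0.088, as a description. Against chr8A, whose contrast chose the cluster, the differences are a description. They were -0.08 ± 0.073 for Peg3, -0.26 ± 0.36 for Usp29 and 0.21 ± 0.52 for Zim1 in clone 2, and 0.05 ± 0.073, 0.43 ± 0.37 and 0.10 ± 0.56 in clone 1.

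LbNOX was compared with the vector in the second table, a contrast that the choice did not use. Peg3 had 129, 125 and 147 CPM in the LbNOX libraries, against 124, 146 and 132 CPM in the vector libraries. Usp29 had 2.97, 3.0 and 3.26 CPM with LbNOX, against 2.66, 2.97 and 2.78 with the vector. Zim1 had 2.00, 2.06 and 3.02 CPM with LbNOX, against 1.56, 2.51 and 2.23 with the vector. The groups overlapped for Peg3 and Zim1, and the LbNOX libraries were all just above the vector libraries for Usp29, as was so for 4.96% of tested genes.

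The log2 changes with LbNOX were -0.0050 ± 0.073 for Peg3, 0.14 ± 0.17 for Usp29 and 0.20 ± 0.25 for Zim1 (edgeR, Benjamini-Hochberg adjusted p = 1 for each, n = 3 against 3). Their intervals of 2 SE on each side were -0.15 to 0.14, -0.20 to 0.48 and -0.30 to 0.70. None was called, where 0.0372% of the 16119 tested genes were, which is 6 genes, and 0 of the 3 had an unadjusted p under 0.05 or were called by DESeq2. There were 2.31 ± 0.0937 Usp29 reads per 100 Peg3 reads with LbNOX and 2.09 ± 0.0611 with the vector (SD, n = 3 each). The groups did not overlap, and the exact two-sided permutation test gave p = 0.1, the smallest it can give with these numbers.

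Between the tables, which were normalized separately and were not tested against each other, the vector cells had 134 ± 11.3 CPM of Peg3 and chr8A cells 439 ± 5.60, both in SL. For Usp29 the same groups had 2.80 ± 0.153 and 10.2 ± 0.512 CPM, and for Zim1 2.10 ± 0.485 and 2.27 ± 0.463 CPM. Both Peg3 and Usp29 were thus nearer to the SL clones than to chr8A in the vector cells. The labels do not say how the vector cells and chr8A cells are related.

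The 10 tested genes on each side of the cluster, in RefSeq order on chromosome 7, were called lower in neither clone in SL and in part in SL2i. In SL, 2 of the 20 were higher and 0 lower in each clone (edgeR, adjusted p under 0.05), where the shares of all tested genes called were 14.3% (higher) and 12.6% (lower) for clone 2 and 8.83% (higher) and 7.77% (lower) for clone 1. The 2 were Epp13, whose product is known from the epididymis (0.49 ± 0.094 in clone 2 and 0.33 ± 0.10 in clone 1), and the zinc finger gene Zik1 (0.33 ± 0.073 and 0.24 ± 0.078). The median log2 change of the 20 was 0.03 in clone 2 and 0.06 in clone 1, and that of all genes was near 0. Zfp28, a zinc finger gene and the nearest tested gene on the Zim1 side, was at -0.26 ± 0.16 in clone 2 and -0.25 ± 0.17 in clone 1 in SL, and neither passed the test. Aurkc, the nearest on the Usp29 side, had 0.21 CPM in SL chr8A. Its change in SL was -0.05 ± 0.55 in clone 2 and -1.79 ± 0.80 in clone 1, and neither passed the test. At an unadjusted p under 0.05, 0 of the 20 were lower in clone 2 and 1 in clone 1, and DESeq2 called 0 lower in each. The range of all 20 changes in SL was -1.53 to 0.69 in clone 2 and -1.79 to 1.88 in clone 1, the extremes being genes with few reads. Zscan4a and Gm7789 had 0.013 CPM in SL chr8A and Zscan4b had 0, so a fall of these genes could not be seen in SL.

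In SL2i, 1 of the 20 was higher and 4 were lower in each clone, where the shares of all tested genes called were 9.74% (higher) and 10.8% (lower) for clone 2 and 10.4% (higher) and 12.1% (lower) for clone 1. Aurkc, a kinase of meiosis and the nearest tested gene on the Usp29 side, was at -1.45 ± 0.27 in clone 2 and -2.12 ± 0.30 in clone 1. Clcn4, a chloride and proton exchanger, was at -0.61 ± 0.17 and -0.90 ± 0.18, and Zscan4a, a gene of the 2-cell embryo state, at -1.20 ± 0.36 and -0.98 ± 0.35. The fourth was Zfp28 in clone 2 (-0.60 ± 0.21) and the zinc finger gene Zfp773 in clone 1 (-1.07 ± 0.28), and the 1 higher was Epp13 (0.36 ± 0.080 and 0.46 ± 0.080). Other genes share 67.9% of the 30-base words of Aurkc, 77.4% of Zscan4a, 22.9% of Zfp28, 19.7% of Zfp773 and 10.8% of Clcn4, so their levels are uncertain. Between LbNOX and vector, 15 of the 20 were tested and 0 were called, by edgeR, by DESeq2 or at an unadjusted p under 0.05.

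**Figure D4:**
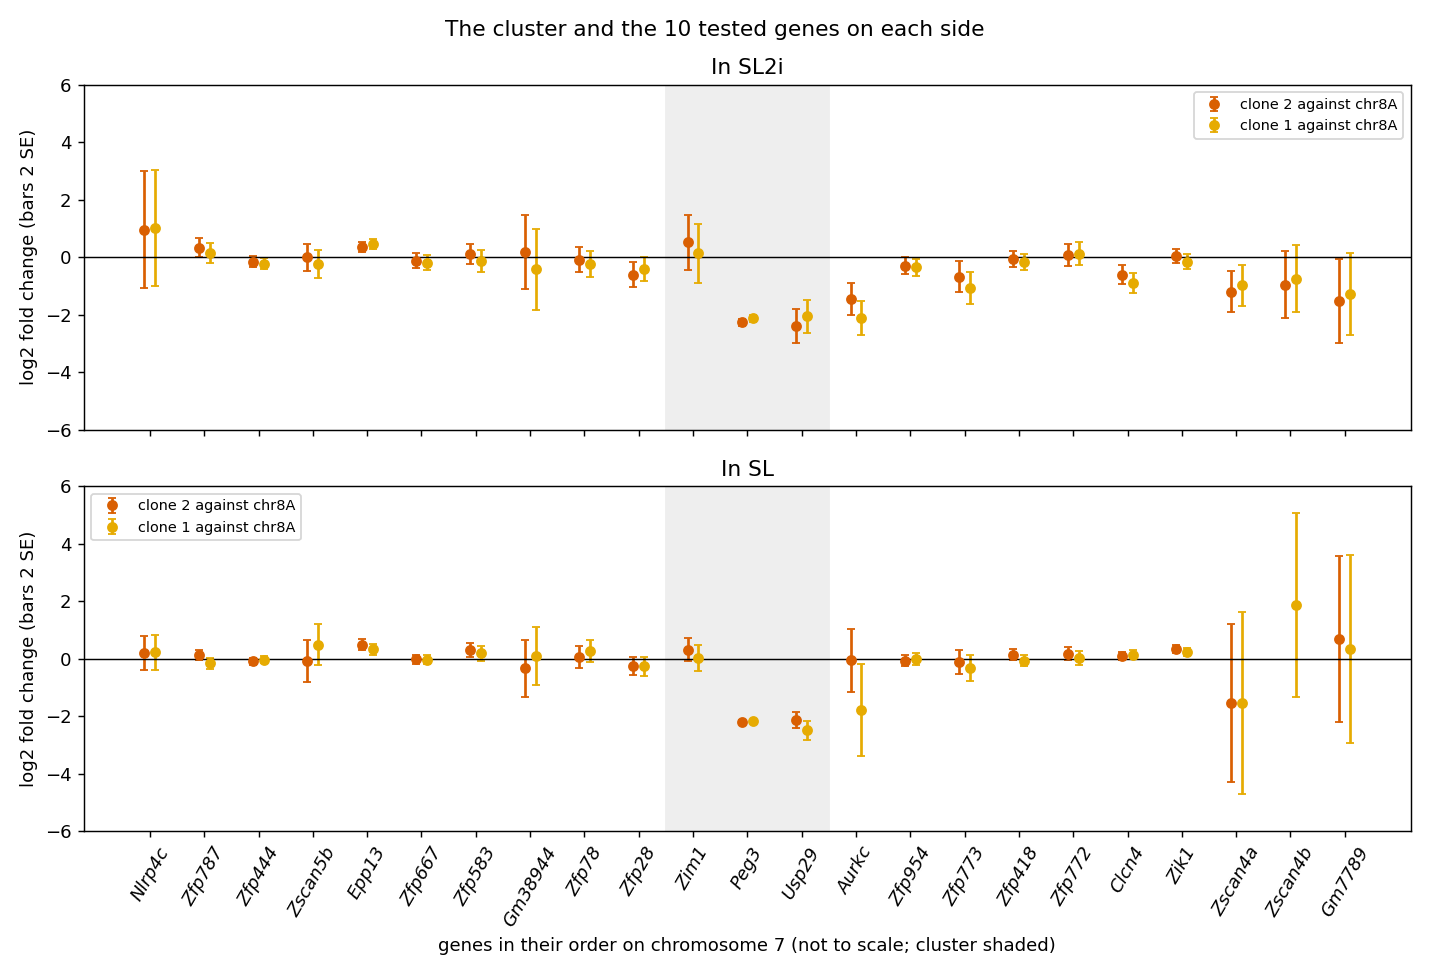
Log2 fold change of clone 2 and of clone 1 against chr8A, with bars of 2 SE on each side, for the cluster (shaded) and the 10 tested genes on each side in their order on chromosome 7, not to scale, in SL2i (top) and SL (bottom). Zscan4b in SL clone 2 had no SE and is not drawn. In SL, Peg3 and Usp29 stand at -2.49 to -2.13, while Zim1 and Zfp28 on the Zim1 side lie between -0.26 and 0.32. Aurkc, on the Usp29 side, has few reads in SL and is at -0.05 ± 0.55 in clone 2 and -1.79 ± 0.80 in clone 1.

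Other imprinted genes were followed as lists. Of 26 listed paternally expressed genes outside the cluster 22 were tested. In SL, 6 were higher and 2 lower in clone 2 (median log2 change 0.02) and 7 higher and 2 lower in clone 1 (median 0.10), and in SL2i, 5 were higher and 3 lower in clone 2 (median 0.17) and 5 higher and 4 lower in clone 1 (median -0.04). The medians over all tested genes were within 0.01 of 0 in these comparisons. Of all tested genes, 14.3% were called higher and 12.6% lower in clone 2 and 8.83% higher and 7.77% lower in clone 1 in SL, and in SL2i 9.74% higher and 10.8% lower in clone 2 and 10.4% higher and 12.1% lower in clone 1. Calls went in both directions in each comparison. Of 20 tested maternally expressed genes, 6 were higher and 3 lower in clone 2 and 6 higher and 4 lower in clone 1 in SL, and 3 higher and 3 lower in clone 2 and 4 higher and 4 lower in clone 1 in SL2i.

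Plagl1, a paternally expressed zinc finger gene, was lower in both clones, and far lower in clone 2 than in clone 1. In SL its level was 0.266 ± 0.120 CPM in clone 2, 23.0 ± 1.63 in clone 1 and 42.2 ± 3.24 in chr8A (SD, n = 3 each). Its log2 change in SL was -7.31 in clone 2 and -0.88 ± 0.056 in clone 1. The clone 2 level rests on 20 reads over 3 libraries. The SE as computed here is too small for so large a change from so few reads, so none is given with SL clone 2. In SL2i its change was -3.21 ± 0.058 in clone 2 and -0.88 ± 0.046 in clone 1. Clone 2 over clone 1 gave -6.44 in SL and -2.33 ± 0.061 in SL2i (edgeR, Benjamini-Hochberg adjusted p = 2.2e-58 and 3.3e-54). For Usp29 the difference between the clones did not pass the test, as given above.

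Several imprinted genes changed in SL2i with little or an opposite change in SL. Igf2, a growth factor gene, had 45.3 ± 0.462 CPM in clone 2, 41.9 ± 4.75 in clone 1 and 2.98 ± 0.391 in chr8A in SL2i (SD, n = 2 each), with log2 changes of 3.93 ± 0.17 and 3.81 ± 0.18, while in SL it was at -0.78 ± 0.044 and -0.35 ± 0.044. H19, a noncoding RNA next to Igf2, was at 3.31 ± 0.36 in clone 2 and 3.09 ± 0.37 in clone 1 in SL2i and at -1.49 ± 0.25 and -1.40 ± 0.27 in SL. In SL2i chr8A H19 had only 16 reads over 2 libraries, at 0.786 ± 0.702 CPM, so the size of its SL2i change is uncertain. The SL2i clones had 7.78 ± 1.21 (clone 2) and 6.72 ± 0.699 CPM (clone 1). Peg10, derived from a retrotransposon, was at 1.68 ± 0.054 and 1.69 ± 0.054 in SL2i, and in SL at 0.0047 ± 0.028 in clone 2, which did not pass the test, and 0.16 ± 0.028 in clone 1. The noncoding RNA Rian was at -1.05 ± 0.049 and -1.29 ± 0.051 in SL2i, and Meg3, from the same domain, at -1.02 ± 0.057 and -1.12 ± 0.059. All these SL2i changes passed the edgeR test with Benjamini-Hochberg adjustment. Cdkn1c, an inhibitor of cyclin-dependent kinases, was at 1.47 ± 0.22 and 1.25 ± 0.23 in SL2i, and Zdbf2 was higher by 0.29 to 0.33 in both clones and both media. Other genes share 63.2% of the 30-base words of Igf2, 27.3% of Cdkn1c, 11.5% of Meg3 and 5.39% of H19, so these levels are uncertain. A test of the difference between the media is not given here for these genes.

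**Figure D5:**
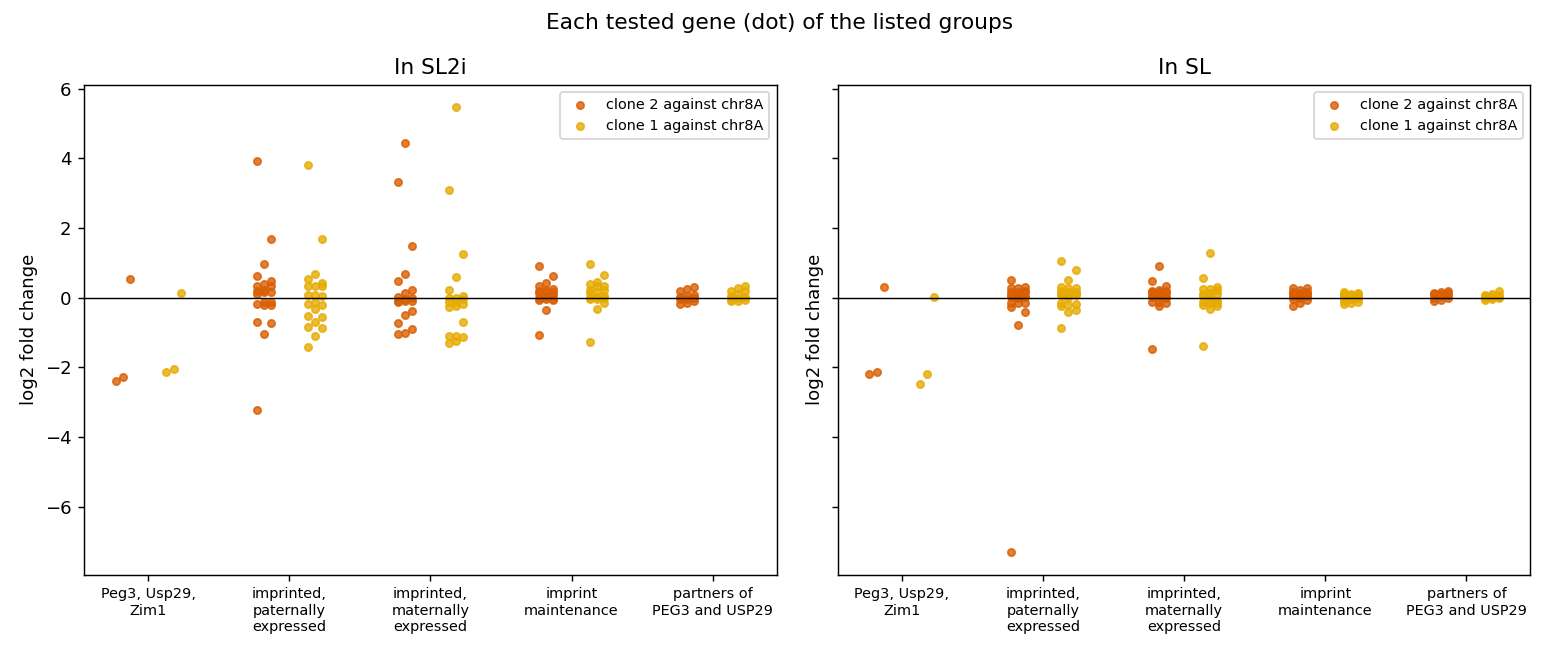
Log2 fold change of clone 2 and of clone 1 against chr8A for each tested gene (dot), in SL2i (left) and SL (right). Shown are the cluster, 2 lists of other imprinted genes, genes that act at imprints or on DNA methylation, and genes listed for links to PEG3 or USP29 (labelled partners). The lists scatter around 0, Plagl1 is the lowest dot (-7.31 in SL clone 2), and Peg3 and Usp29 lie near -2 in both media.

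The 19 listed genes that act at imprints or that set, keep or oxidize DNA methylation, with Tet1, Tet2 and Tet3 among them, were all tested. In SL, 10 were higher and 2 lower in clone 2, and 6 higher and 3 lower in clone 1. In SL2i, 9 were higher and 2 lower in clone 2, and 10 higher and 3 lower in clone 1. Dnmt3l, a cofactor of de novo methylation, was at 0.92 ± 0.041 in clone 2 and 0.96 ± 0.041 in clone 1 in SL2i. The de novo methyltransferase gene Dnmt3b was at 0.61 ± 0.041 and 0.65 ± 0.041, and Dppa3, which protects maternal methylation in the zygote, at -1.07 ± 0.10 and -1.27 ± 0.11. Tet2, which oxidizes 5-methylcytosine, was at 0.43 ± 0.043 in both clones. Each of these SL2i changes passed the edgeR test. Other genes share 30.4% of the 30-base words of Dppa3 and 13.7% of Dnmt3b. The median change of the 19 was 0.13 and 0.14 in SL2i. The shares over all tested genes were those given for the imprinted lists, 14.3% and 8.83% higher and 12.6% and 7.77% lower for the 2 clones in SL, and 9.74% and 10.4% higher and 10.8% and 12.1% lower in SL2i.

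A list of 12 genes was drawn up for links to PEG3 or USP29, and not all of them are known partners of either protein. In SL, 4 of the 12 were higher and 1 lower in clone 2, and 1 was higher and 0 lower in clone 1. In SL2i, 3 were higher and 1 lower in clone 2, and 3 were higher and 0 lower in clone 1. The counts of 0 lower in clone 1 were also 0 by DESeq2, and 0 in SL and 2 in SL2i at an unadjusted p under 0.05. Over all tested genes the shares called ranged from 8.83% to 14.3% higher and from 7.77% to 12.6% lower in these 4 comparisons. The changes of the 12 were between -0.18 and 0.33. The corepressor gene Trim28 is also on the list of imprint and methylation genes above. In SL2i it was at 0.25 ± 0.034 in clone 2 and 0.33 ± 0.034 in clone 1, and the p53 ligase gene Mdm2 at 0.19 ± 0.045 and 0.26 ± 0.045. Trp53, whose protein USP29 can stabilize, was at 0.05 ± 0.035 in clone 2 and 0.19 ± 0.035 in clone 1, and the second passed the test. Bax, a cell death gene, was at -0.00081 ± 0.040 and 0.02 ± 0.040 in SL2i, and neither passed the test. Other genes share 10.6% of the 30-base words of Trp53 and 11.3% of Bax.

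With the medium, other imprinted genes were called lower more often than higher, where 37.2% of all tested genes were called lower and 35.8% higher in clone 2, 37.1% lower and 35.9% higher in clone 1, and 36.8% lower and 36.1% higher in chr8A. In SL2i relative to SL, 13 of 22 paternally expressed genes were lower and 4 higher in clone 2, 15 lower and 3 higher in clone 1, and 15 lower and 3 higher in chr8A. Of the 20 maternally expressed genes, 15 were lower and 2 higher in each clone and 17 lower and 1 higher in chr8A. The median log2 change in chr8A was -0.83 for the paternal and -1.69 for the maternal list, beside 0.00088 over all tested genes. The 20 genes flanking the cluster went the other way in number, with 12 higher and 4 lower in clone 2, 11 higher and 4 lower in clone 1, and 13 higher and 3 lower in chr8A. Between LbNOX and vector, 0 genes of any list were called by edgeR, and at an unadjusted p under 0.05 the counts were 1 paternally and 4 maternally expressed genes, all lower, of which DESeq2 called 2 maternally expressed ones.

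Genes whose profile over the 6 groups of the first table was most like that of Peg3 were sought among 9660 genes whose mean was 3 log2 CPM or more, by the root mean square difference of group means of log2 CPM, each gene centred on its own mean. The 5 nearest were Col9a2 (0.61), Usp43 (0.67), Prdm1 (0.72), Got1l1 (0.74) and Ank3 (0.76). Usp29, at 0.47, was nearer than any of the 9660, and 2 tested genes of any level were nearer than it. Zim1 was at 1.17, and 1701 of the 9660 were nearer than it. Usp29 and Zim1 themselves lay under the level set for the 9660. The distances include the Peg3 difference between clones and chr8A that chose the cluster, so they are a description. In SL the log2 changes of these 5 genes lay between -1.06 and -0.33 in clone 2 and between -0.61 and -0.33 in clone 1, smaller than those of Peg3. Col9a2, a cartilage collagen gene, was at -2.56 ± 0.24 in clone 2 and -1.84 ± 0.22 in clone 1 in SL2i. Of the words of Usp43, 12.2% are shared with other genes.

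Among all 17178 tested genes, 44 had a level at least 4-fold lower in SL clone 2 and 58 in SL clone 1 than in SL chr8A, and 241 in each clone in SL2i, called or not. In SL the summed neural markers were at 391 CPM in each clone against 327 CPM in chr8A, and the trophoblast markers at 31.2 CPM in clone 2 and 40.9 in clone 1 against 45.0 in chr8A. The fibroblast markers in SL were at 63.3 CPM in clone 2 and 67.6 in clone 1 against 65.2 in chr8A, and the endoderm markers at 20.8 and 22.9 against 24.2. In SL2i the trophoblast markers were at 36.5 CPM in clone 2 and 39.4 in clone 1 against 21.6 in chr8A, and the endoderm markers at 9.53 and 9.51 against 5.71. The neural markers in SL2i were at 62.0 CPM in clone 2 and 65.9 in clone 1 against 58.2 in chr8A, and the fibroblast markers at 13.6 and 12.3 against 14.3. The part of these markers in the Peg3 and Usp29 levels was not tested.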

How the data were processed

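Poly(A) RNA of mouse ESCs was measured in 21 libraries of 8 groups. Per the submitters' processing notes, reads were aligned to GRCm39 with DRAGEN 3.10 and counted with featureCounts of Subread. The 2 tables the authors deposited hold raw counts for 40838 genes each. Members were matched by the tables' symbols, and 0 count columns of other samples were present. Members and gene lists were chosen with earlier results of these data known.

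Counts were tested with edgeR 4.0.16 in R 4.3.3 (filterByExpr, TMM factors, robust quasi-likelihood F test, 1 mean per group), with 15 libraries and 17178 genes in one fit and 6 libraries and 16119 genes in the other. Adjustment was by Benjamini-Hochberg over all genes tested, with adjusted p under 0.05 called. SE is the log2 fold change divided by the square root of F. CPM uses TMM-scaled totals, RPKM the tables' gene lengths, and ± on levels is the SD. Median SEs were 0.0785 to 0.0831 for clones against chr8A in SL, 0.141 to 0.142 in SL2i and 0.0987 for LbNOX. The script was tested on simulated data. Genes named are the members, called flanking genes, up to 4 called genes per list with the smallest adjusted p over the 4 comparisons of a clone with chr8A, and the 5 most like Peg3.

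Promoters and gene order came from RefSeq for GRCm38.p6, and shared 30-base words from GENCODE M21 transcripts. Alternatives were DESeq2 1.42.0, RLE factors, no filter, at least 1 CPM in 3 libraries, a replicate block, only the compared groups, equal depth, and each library left out. No pair of replicates agreed within sampling noise (chi-square per degree of freedom 1.84 to 12.8).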

Additional observations from a re-analysis of the deposited data

How the results depend on the processing

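The 33 results of the 3 genes were recomputed under 695 alternatives in all, and 673 kept their direction and their side of the threshold or moved by less than the spread. Many alternatives left out a library of a group that was not compared, which could hardly move the change. The count therefore does not measure how robust the results are. The fall of Usp29 in SL2i passed the edgeR test under every alternative run (adjusted p 1.4e-12 to 2.6e-06 in clone 2 and 3.6e-10 to 3.0e-05 in clone 1). Depth limited the rest: thinned to equal depth, genes called numbered 2282 (4618 without thinning) in clone 2 and 1210 (2850) in clone 1 against chr8A in SL, 282 (756) and 13 (27) between the clones in SL and SL2i, and 25 (80) for the interaction. Thinned, the log2 changes were -1.97 for Usp29 in SL clone 2, -2.10 for Peg3 in SL2i clone 1, -0.77 for Zim1 with the medium in clone 2, and, with the sign turned, -0.23 for Zim1 between the clones in SL and -0.0060 for Usp29 with LbNOX. DESeq2 called 488 genes between the clones in SL and 15 with LbNOX. With only the groups compared, 1223 and 11 genes were called between the clones in SL and SL2i and 153 for the interaction, Zim1 in SL2i clone 1 failed the filter and gave no value, and for LbNOX this setting is the fit itself. No filter gave 24 genes and a Peg3 change of 0.0015 with LbNOX. Causes were not tested.

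Leaving out each library in turn, which in SL2i leaves 1 library in a group that is assumed to vary like the others, gave ranges. Peg3 ran from -2.23 to -2.17 in SL clone 2 and from -2.16 to -2.09 in SL2i clone 1, and Zim1 from -0.046 to 0.29 in SL2i clone 1. Between the clones, Peg3 ran from -0.051 to 0.025 in SL and Usp29 from -0.72 to 0.0011 in SL2i, with 371 to 831 and 16 to 40 genes called. Usp29 with the medium in clone 2 ran from -1.38 to -0.70, and the interaction of Zim1 from -0.18 to 0.34, with 28 to 107 genes called. With LbNOX, Peg3 ran from -0.079 to 0.061 and Zim1 from -0.019 to 0.35, with 0 to 13 genes called, 0 being without vector replicate 3.

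Replicate numbers did not pair the samples: 1 of 33 same-numbered pairs among clone and chr8A libraries had a correlation over 0.1 (r -0.078 to 0.11), and 1 of 3 among LbNOX and vector libraries (r -0.50 to 0.39). Among unlike-numbered pairs it was 0 of 60 for clone and chr8A libraries and 4 of 6 for LbNOX and vector libraries (r -0.59 to 0.68). The highest was vector replicate 2 with LbNOX replicate 3. Structure shared across LbNOX and vector that does not follow the numbers was not modelled. With the replicate block, 130 genes were called for the interaction and 3 with LbNOX, and no call of the 3 cluster genes changed.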
